A study of Mus musculus with 8 samples.

Results

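The genes described here are 4 galectins (*Lgals1*, *Lgals3*, *Lgals8* and *Lgals9*) and 6 genes of the cytoskeleton, nucleus and cell membrane (*Vim*, *Crip1*, *Ahnak*, *Lmna*, *Emp3* and *Tagln2*). They were chosen by name, as genes known from effector and memory T cells, but with earlier results of these data known. All 10 were present among the 47493 genes of the table and among the 12166 genes that reached a mean of 1 FPKM (a level divided by gene length and by library depth, so that it can be set side by side between genes and libraries). RNA was sequenced from endogenous CD8+ T cells of 4 female C57BL/6 mice, 6 to 8 weeks old at the start, with 1 IL-18Rα-hi-enriched and 1 flow-through library from each mouse. Libraries with the same replicate number were taken as those of the same mouse. Every mouse had received B16F10 melanoma cells on day 0, cyclophosphamide (300 mg/kg) on day 3, Thy1.1+ Pmel-1 CD8+ T cells, whose transgenic receptor recognizes a melanoma antigen, on day 5, human IL-2 (10000 IU) daily for 3 days from day 5 and anti-CD4 antibody (200 μg) weekly from day 10. On day 25, Thy1.1-negative CD8+ T cells were isolated with beads from spleen and inguinal lymph nodes, cells with high IL-18Rα were retained on a magnetic column through a labelled antibody, and the cells that ran through served as the control. Both fractions therefore carry the whole regimen, neither comes from an untreated mouse, and the flow-through is the remainder of a bead separation and not a sorted subset.

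Galectins are lectins that bind β-galactoside sugars. They are made in the cytosol without a signal peptide, leave the cell by an unconventional route and crosslink glycoproteins on the surface of the same or a neighbouring cell, and activated T cells are known to make more galectin-1 and galectin-3 than naive ones. Vimentin is the main intermediate filament protein of lymphocytes, lamin A/C forms part of the mesh under the nuclear membrane, and the other genes encode proteins that bind actin, membranes or signalling complexes. Levels of several of these genes are known to rise when naive T cells become effector or memory cells.

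Of the 10 genes, 7 were higher and 1 was lower in the IL-18Rα-hi-enriched fraction (limma on log2(FPKM + 1), Benjamini-Hochberg adjusted p under 0.05), and *Lgals8* and *Lmna* did not pass the test. Over all genes tested, 14.1% were called higher and 13.7% lower. The 8 libraries separated into non-overlapping fractions for the same 7 genes upward and for *Lgals9* downward, against 16.4% of all genes upward and 15.9% downward. It follows that each of these 8 genes moved in the same direction in 4 of 4 mice, which adds no separate evidence. The median log2 fold change was 1.03 over the 10 genes and -0.02 over all genes tested. As an alternative to the deposited scaling, every library was set to the same mean log2 level of 7 CD8 T-cell identity genes (T-cell scaling). Under it 5 of the 10 genes were called higher and 0 lower, against 4.54% and 6.39% of all genes tested. The separation itself was checked with *Il18r1*, which encodes IL-18Rα and was higher by 1.85 on the log2 scale (SE 0.15, limma adjusted p = 0.00029).

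**Figure D1:**
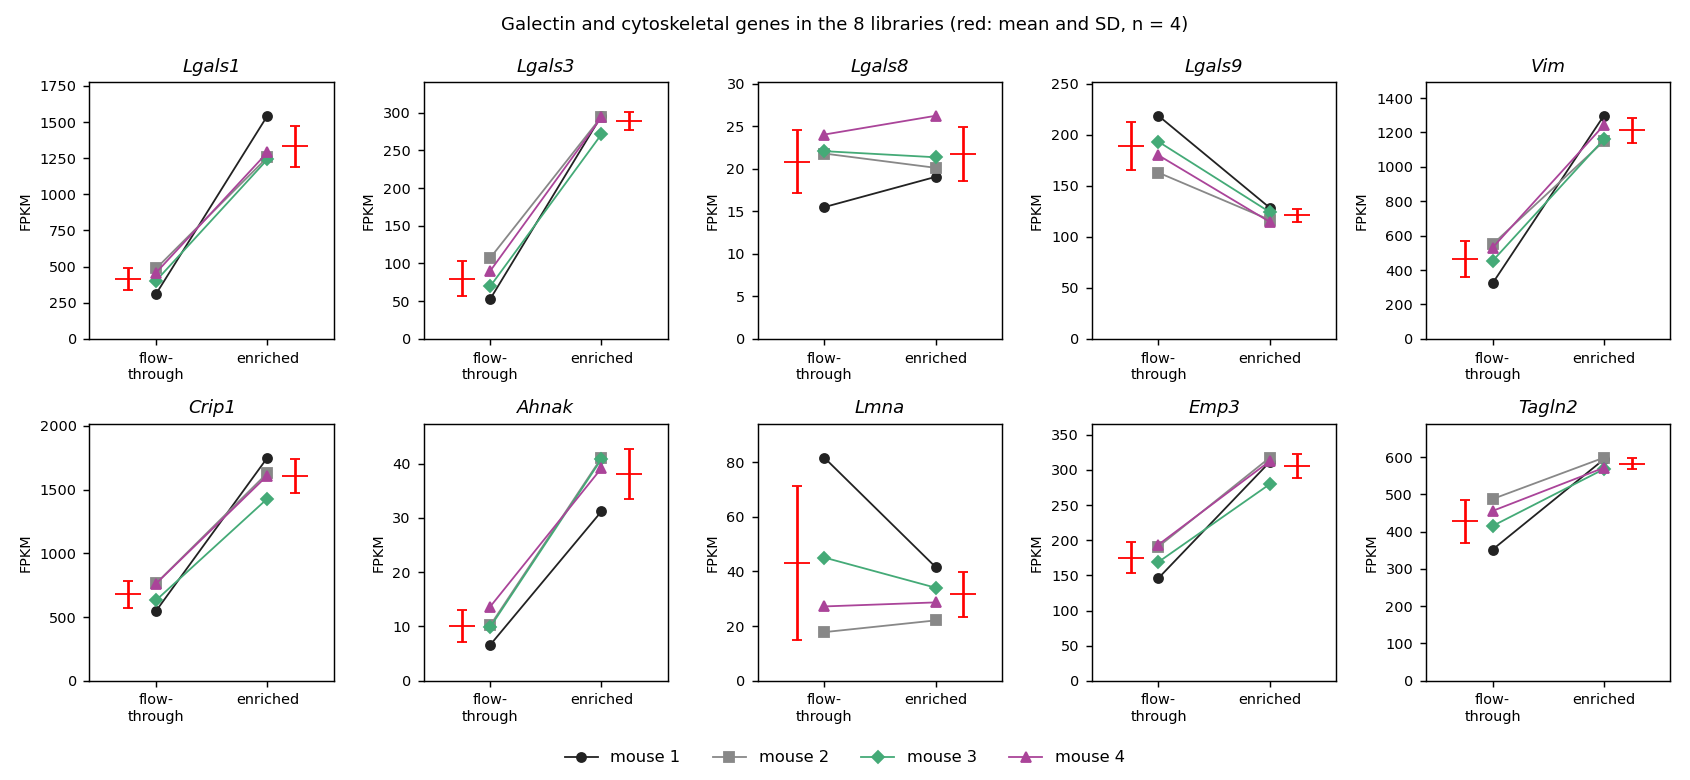
Level of each of the 10 genes in FPKM (vertical axes, from 0) in the flow-through library and the enriched library of each mouse, with a line joining the libraries of 1 mouse and the mean and SD (n = 4) in red. The lines of 7 genes rise without overlap between the fractions, those of *Lgals9* fall without overlap, and those of *Lgals8* and *Lmna* cross or overlap.

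Promoter sequences are shown for *Lgals3*, *Vim* and *Crip1*, as 3 of the genes that rose, and for *Lgals9*, as the galectin that fell. Each is the 250 bases before the RefSeq start (GRCm38.p6, which is mm10), read 5′ to 3′ on the strand of the gene, and capitals mark every match on either strand to the GC box, spelled GGGCGG, the CCAAT box, spelled CCAAT, or the TATA box, spelled TATAAA. The *Lgals3* window was chr14:47373610-47373859 (plus strand), that of *Vim* chr2:13574061-13574310 (plus), that of *Crip1* chr12:113151762-113152011 (plus) and that of *Lgals9* chr11:78984925-78985174 (minus).
Lgals3: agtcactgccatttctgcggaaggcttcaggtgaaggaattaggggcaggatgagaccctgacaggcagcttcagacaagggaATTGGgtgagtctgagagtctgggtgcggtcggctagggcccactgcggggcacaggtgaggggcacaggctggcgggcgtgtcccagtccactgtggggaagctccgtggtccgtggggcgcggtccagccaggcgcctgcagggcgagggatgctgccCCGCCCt
Vim: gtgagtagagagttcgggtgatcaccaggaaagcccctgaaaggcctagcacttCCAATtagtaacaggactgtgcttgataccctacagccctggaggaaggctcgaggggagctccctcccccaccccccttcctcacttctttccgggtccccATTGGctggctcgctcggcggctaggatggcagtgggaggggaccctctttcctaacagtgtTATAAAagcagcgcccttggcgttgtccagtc
Crip1: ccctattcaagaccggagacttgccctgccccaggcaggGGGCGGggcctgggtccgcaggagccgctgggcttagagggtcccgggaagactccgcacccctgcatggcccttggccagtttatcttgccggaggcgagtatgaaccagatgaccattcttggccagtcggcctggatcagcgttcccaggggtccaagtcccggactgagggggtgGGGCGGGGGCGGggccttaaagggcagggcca
Lgals9: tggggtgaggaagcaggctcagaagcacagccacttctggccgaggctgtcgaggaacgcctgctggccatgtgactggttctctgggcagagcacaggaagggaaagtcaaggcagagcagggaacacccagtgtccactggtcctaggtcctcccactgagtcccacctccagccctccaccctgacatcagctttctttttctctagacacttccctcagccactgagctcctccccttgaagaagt

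The *Crip1* window held 3 GC boxes, 2 of them adjoining, the *Vim* window 2 CCAAT boxes and 1 TATA box, the *Lgals3* window 1 of each of the first 2 kinds, and the *Lgals9* window none of the 3. Promoters were found for 9 of the 10 genes, the exception being *Lgals1*. A gene was counted if any of its entries held the motif, and *Lmna* and *Emp3* had more than 1 entry. The shares over all promoters are per promoter, so the units differ and the counts of the 9 can be raised. A GC box was present in 5 of the 9 and in 32.7% of 32851 promoters of the same length. A CCAAT box was present in 4 of the 9 and in 33.8% of all promoters, and a TATA box in 2 of the 9 (*Vim* and *Emp3*) and in 12.4%. The *Emp3* match lay in an entry whose start is not in the GENCODE annotation. Motifs bound by transcription factors of activated T cells were searched in the same way. The AP-1 motif TGANTCA and the T-box motif GGTGTGA were in 0 of the 9 windows (6.75% and 3.33% of all promoters), and the ETS motif CCGGAAG was in 1, that of *Lmna* (6.91%). These are letter matches in a short window, and no binding was measured in these cells.

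To compare the galectins, their levels were examined library by library. *Lgals1* (ENSMUSG00000068220; mm10 chr15:78926725-78930465, plus strand, protein-coding) encodes galectin-1, a small galectin that acts as a homodimer. It stood at 311.8, 486.9, 402.7 and 458.3 FPKM in flow-through replicates 1 to 4 and at 1543, 1256, 1241 and 1289.95 FPKM in the enriched libraries of the same mice. The lowest enriched library was far above the highest flow-through library. The mean rose from 414.9 ± 77.1 to 1333 ± 142 FPKM (SD, n = 4), a ratio of 3.21, which is 1.70 on the log2 scale (SE 0.15, limma adjusted p = 0.00036). The 2 processed pseudogenes *Lgals1-ps1* and *Lgals1-ps2* were listed at 0 FPKM in all 8 libraries, so reads shared with these copies may have been assigned to *Lgals1*.

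*Lgals3* (ENSMUSG00000050335; chr14:47367751-47386160, plus strand) encodes galectin-3, the chimera-type galectin that forms lattices through an extended amino-terminal tail. It was at 52.9, 107.3, 69.7 and 90.1 FPKM in flow-through replicates 1 to 4 and at 295.8, 294.5, 271.3 and 293.7 FPKM in the enriched libraries. The enriched libraries lay close together (coefficient of variation 4.06%) and the flow-through libraries were spread widely (29.7%), without overlap between the fractions. The mean rose from 80.0 ± 23.7 to 288.8 ± 11.7 FPKM, 3.61 times, or 1.89 as a log2 fold change (SE 0.19, limma adjusted p = 0.00077). By log2 fold change *Lgals3* ranked at percentile 99.8 and *Lgals1* at percentile 99.6 of all genes tested. The test did not separate their fold changes, as the log2 ratio of *Lgals1* to *Lgals3* differed between the fractions by -0.19 (exact two-sided permutation p = 0.171, adjusted over 6 gene pairs 0.171).

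*Lgals9* (ENSMUSG00000001123; chr11:78962974-78984946, minus strand) encodes galectin-9, a tandem-repeat galectin with a pair of sugar-binding domains known as a ligand of TIM-3. It was at 218.8, 163.0, 193.4 and 180.1 FPKM in flow-through replicates 1 to 4 and at 128.6, 116.7, 124.4 and 114.8 FPKM in the enriched libraries. Every enriched library was below every flow-through library. The mean went from 188.8 ± 23.5 to 121.1 ± 6.5 FPKM, so that the flow-through level was 1.56 times the enriched level (log2 fold change -0.63, SE 0.10, limma adjusted p = 0.0035).

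*Lgals8* (ENSMUSG00000057554; chr13:12439415-12464944, minus strand) encodes galectin-8, another tandem-repeat galectin, which marks damaged vesicles for autophagy. It was at 15.5, 21.8, 22.1 and 24.0 FPKM in flow-through replicates 1 to 4 and at 19.1, 20.1, 21.4 and 26.2 FPKM in the enriched libraries. The fractions overlapped, and the gene was higher in the enriched library of 2 mice and lower in that of the other 2. The log2 fold change was 0.06 (95% interval -0.28 to 0.40, limma adjusted p = 0.78), and it became negative under T-cell scaling. The 3′ end of *Lgals8* overlaps *Heatr1* on the opposite strand, which was at 12.4 to 27.1 FPKM, and because the default of the counting step does not use strand the values of *Lgals8* are uncertain.

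Summed over the galectin genes of the table, the level went from 715.9 ± 82.2 to 1777 ± 150 FPKM, and its make-up differed between the fractions. *Lgals1* contributed 57.6% ± 4.47 of the summed galectin FPKM in flow-through libraries and 74.9% ± 1.55 in the enriched fraction. The share of *Lgals3* was 11.0% ± 2.12 and 16.3% ± 1.11, and that of *Lgals8* 2.90% ± 0.30 and 1.23% ± 0.23. *Lgals9* contributed 26.9% ± 6.70 in the flow-through, where its share ran from 20.6% to 36.0%, and 6.84% ± 0.44 in the enriched fraction. FPKM of *Lgals1* was 1.43 to 2.99 times that of *Lgals9* in flow-through libraries and 9.98 to 12.0 times in enriched libraries. This ratio is taken within a library, so a scaling factor applied to a library leaves it as it is. On the log2 scale the difference between the fractions was 2.32 (exact two-sided permutation p = 0.0286, which is the lowest that 4 against 4 allows, and adjusted over 6 pairs 0.0429), and it was positive in 4 of 4 mice, from 1.84 to 3.07. Because *Lgals1* rose and *Lgals9* fell without overlap, that p and the shared sign were fixed in advance and add no separate evidence. The ratio of *Lgals1* to *Lgals8* also rose, by 1.63 on the log2 scale (exact permutation p = 0.0286, adjusted 0.0429).

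**Figure D2:**
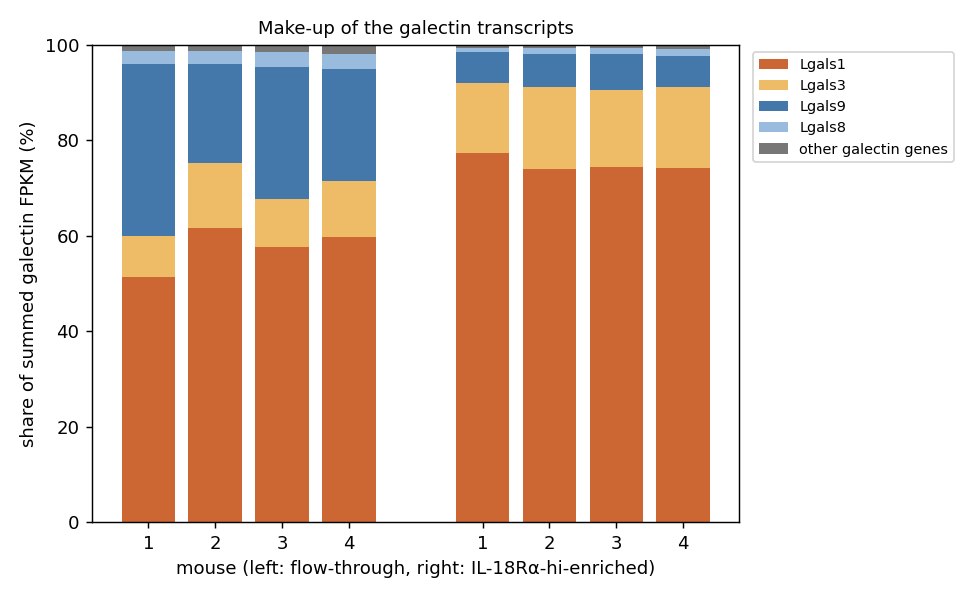
Share of each galectin gene in the summed galectin FPKM of a library (vertical axis, percent), with the 4 flow-through libraries on the left and the 4 enriched libraries on the right. The *Lgals9* part is 20.6% to 36.0% in flow-through libraries and 6.44% to 7.44% in enriched libraries, and the *Lgals1* part is largest in every library.

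Other galectin genes were low. Of the 11 galectin genes listed, 10 were in the table and 7 were tested, of which 3 were higher and 1 lower; under T-cell scaling the counts were 3 and 0. Beside *Lgals1*, *Lgals3* and *Lgals9*, the galectin-like gene *Lgalsl* passed, at 1.71 to 2.86 FPKM in flow-through libraries and 4.80 to 5.14 FPKM in the enriched libraries (log2 fold change 0.81, limma adjusted p = 0.0038). *Lgals4* (log2 fold change -0.04, limma adjusted p = 0.91) and *Lgals7* (-0.64, limma adjusted p = 0.065) did not pass, the latter at 2.31 FPKM or less in every library. With the mouse as a block *Lgals7* passed (limma adjusted p = 0.0097). *Lgals2* was listed at 0 FPKM in all 8 libraries.

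Galectins bind sugar chains whose length and end caps are set by glycosyltransferases, so genes of N- and O-glycan synthesis were examined. Of 13 tested, 6 were higher and 1 was lower (median log2 fold change 0.33); under T-cell scaling 1 was higher. *St6gal1*, whose product adds α2,6-linked sialic acid that is known to block galectin-1 binding, rose from 31.3 ± 9.35 to 64.8 ± 3.2 FPKM (fold change on the log2 scale 1.08, limma adjusted p = 0.0071) and was the 1 gene of the list called under T-cell scaling. *Gcnt1*, which encodes the core 2 branching enzyme of O-glycans, rose from 8.8 ± 1.23 to 17.3 ± 1.48 FPKM (0.91, limma adjusted p = 0.0014), and *St3gal1*, which encodes a sialyltransferase that caps core 1 O-glycans, had a log2 fold change of 0.56 (limma adjusted p = 0.0024). *Mgat4b*, a branching enzyme of N-glycans, was lower (-0.52, limma adjusted p = 0.022). Of 11 genes for surface glycoproteins and other proteins known to bind galectins, 7 were higher (median 0.76); under T-cell scaling 5 were higher. The largest changes among those named were for *Havcr2*, which encodes TIM-3, from 3.35 ± 0.72 to 14.1 ± 1.74 FPKM (fold change on the log2 scale 1.80), for *Cd7* (1.63) and for the integrin chain gene *Itgb1* (1.54; limma adjusted p = 0.0002 to 0.0021 for the 3).

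Vimentin and its filament partners were examined next. *Vim* (ENSMUSG00000026728; chr2:13573927-13582826, plus strand) was at 322.8, 549.6, 453.1 and 530.1 FPKM in flow-through replicates 1 to 4 and at 1297, 1149, 1159 and 1241 FPKM in the enriched libraries. The fractions were separated by more than the whole range of either one. The mean rose from 463.9 ± 102.9 to 1212 ± 70.5 FPKM, 2.61 times (fold change on the log2 scale 1.41, SE 0.16, limma adjusted p = 0.0012). Of 10 genes for intermediate filaments and their linkers 3 were tested, and *Plec*, whose product plectin ties vimentin to actin, rose with *Vim* (0.86, limma adjusted p = 0.005), while the keratin gene *Krt18* had a log2 fold change of -0.33 (limma adjusted p = 0.26). Under T-cell scaling *Plec* missed the threshold (adjusted p = 0.06).

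*Crip1* (ENSMUSG00000006360; chr12:113146316-113153879, plus strand) encodes a small LIM-domain protein and had the highest level of the 10 genes in both fractions. It was at 549.1, 765.0, 632.7 and 763.2 FPKM in flow-through replicates 1 to 4 and at 1751, 1630, 1430 and 1611 FPKM in the enriched libraries, without overlap. The mean rose from 677.5 ± 105.7 to 1605 ± 132.5 FPKM, 2.37 times (fold change on the log2 scale 1.25, SE 0.12, limma adjusted p = 0.00068). Of 14 LIM-domain genes of the cytoskeleton that were tested, *Crip1* among them, 8 were higher (median 0.46), and 3 were higher under T-cell scaling. With *Crip1* left out, 7 of 13 were higher (median 0.26). *Fhl2*, which encodes a LIM-only cofactor, rose from 3.17 ± 0.83 to 8.77 ± 0.63 FPKM (1.25), *Zyx*, which encodes the adhesion protein zyxin, from 141.1 ± 32.7 to 300.0 ± 17.0 FPKM (1.11), and *Pdlim2*, whose product can direct NF-κB subunits to degradation, from 44.6 ± 5.76 to 76.6 ± 4.25 FPKM (0.77; limma adjusted p = 0.0016 to 0.0024 for the 3).

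*Ahnak* (ENSMUSG00000069833; chr19:8989284-9076914, plus strand) encodes a very large scaffold protein under the plasma membrane, from a transcript of up to 18100 bases. It was at 6.62, 10.2, 9.90 and 13.7 FPKM in flow-through replicates 1 to 4 and at 31.2, 41.1, 40.8 and 39.2 FPKM in the enriched libraries. Its ratio of means, 3.77, was the highest of the 10 genes, at 10.1 ± 2.88 against 38.1 ± 4.66 FPKM (fold change on the log2 scale 1.85 with SE 0.19, limma adjusted p = 0.00076). AHNAK is known to bind a complex of annexin A2 and S100A10 at the membrane, and both partner genes rose, *Anxa2* from 124.6 ± 27.3 to 367.3 ± 18.7 FPKM (1.58, limma adjusted p = 0.00062) and *S100a10* from 387.1 ± 94.9 to 866.7 ± 57.8 FPKM (1.19, limma adjusted p = 0.0024). The related gene *Ahnak2* was near 0, with a highest value of 0.0411 FPKM. The log2 ratio of *Vim* to *Ahnak* was lower in 4 of 4 mice but did not pass the test (difference -0.43, exact permutation p = 0.0571, adjusted over 6 pairs 0.0686).

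*Emp3* (ENSMUSG00000040212; chr7:45918023-45921404, minus strand), which encodes a small membrane protein with 4 spans, was at 146.1, 190.9, 169.1 and 193.7 FPKM in flow-through replicates 1 to 4 and at 311.3, 317.4, 279.7 and 312.4 FPKM in the enriched libraries. The fractions did not overlap, and the ratio of the means, 174.9 ± 22.2 and 305.2 ± 17.2 FPKM, was 1.74 (log2 fold change 0.81, SE 0.10, limma adjusted p = 0.0017). Its relative *Emp1* rose from 3.19 ± 0.93 to 9.75 ± 0.49 FPKM (1.39, limma adjusted p = 0.0014), and the other genes of the family were under the level tested. *Tagln2* (ENSMUSG00000026547; chr1:172500047-172507380, plus strand) encodes transgelin-2, an actin-binding protein that stabilizes the contact between a T cell and its target. It was at 351.9, 487.5, 415.2 and 455.5 FPKM in flow-through replicates 1 to 4 and at 593.7, 598.4, 567.5 and 571.3 FPKM in the enriched libraries. The fractions did not overlap, but the ratio of the means, 427.5 ± 58.5 and 582.7 ± 15.6 FPKM, was the smallest among the genes that rose, at 1.36 (log2 fold change 0.46, SE 0.10, limma adjusted p = 0.0139). The rise of *Tagln2* was smaller than that of *Emp3* by 0.35 on the log2 scale (exact two-sided permutation p = 0.0286, adjusted over 6 pairs 0.0429). This ratio did not overlap between the fractions, so its shared sign in 4 of 4 mice adds no separate evidence. The calponins, which share a domain with transgelins, went in opposite directions, with *Cnn2* higher (0.71, limma adjusted p = 0.0136) and *Cnn3* lower (-0.94, limma adjusted p = 0.0051). Under T-cell scaling *Cnn2* was not called (0.41, limma adjusted p = 0.074) and *Cnn3* was still lower (-1.21, limma adjusted p = 0.024).

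Actin and its regulators were examined because transgelin-2 binds actin and plectin ties vimentin to it. Of 30 genes tested, 24 were higher and 1 was lower (median 0.54), and under T-cell scaling 8 were higher and 1 lower. *Capg*, which encodes an actin-capping protein, rose from 76.9 ± 15.1 to 225.3 ± 8.93 FPKM (1.56, limma adjusted p = 0.00039). The tropomyosin gene *Tpm4* (1.34, limma adjusted p = 0.0028) and the actin crosslinker gene *Flna* (1.08, limma adjusted p = 0.0012) rose as well. The exception was *Actn1*, which encodes the crosslinker α-actinin-1 and was the only gene of the 30 to be lower (-0.66, limma adjusted p = 0.033; with the mouse as a block *Tpm1* was lower as well, limma adjusted p = 0.048).

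*Lmna* (ENSMUSG00000028063; chr3:88480147-88509956, minus strand) encodes lamins A and C, which stiffen the nucleus. It was at 81.6, 17.8, 45.1 and 27.2 FPKM in flow-through replicates 1 to 4 and at 41.6, 22.1, 34.0 and 28.7 FPKM in the enriched libraries of mice 1 to 4. It varied more among mice than between fractions, with a coefficient of variation of 65.6% in flow-through libraries and 26.2% in the enriched fraction. The log2 fold change was -0.25 (95% interval -1.20 to 0.71, limma adjusted p = 0.69), and by mouse it was -0.95, 0.30, -0.39 and 0.07. Without both libraries of mouse 1 it was -0.01, and without flow-through replicate 1 alone it was 0.13, so its sign changed without that library. *Vim* rose relative to *Lmna* by 0.77 to 2.96 on the log2 scale in 4 of 4 mice (mean 1.66, exact two-sided permutation p = 0.0286, adjusted over 6 pairs 0.0429). The fractions nearly met, with a highest flow-through log2 ratio of 4.87 and a lowest enriched log2 ratio of 4.93. Because they did not overlap, the shared sign adds no separate evidence. Without flow-through replicate 1 the difference between the fractions was 1.11. Of 14 genes for the lamina and nuclear envelope, *Lmna* among them, 4 were higher (median 0.08). Under T-cell scaling limma called 0 of the 14, and 0 had an unadjusted p under 0.05. The 4 were *Lmnb1*, which encodes lamin B1, from 113.1 ± 9.56 to 192.9 ± 15.1 FPKM (0.77), the lamin B receptor gene *Lbr* (0.49), *Tmpo* (0.37) and *Emd* (0.24; limma adjusted p = 0.0012 to 0.0194 for the 4).

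*Crip2*, a relative of *Crip1*, ran in parallel with *Lmna*. It was at 65.2, 13.8, 40.2 and 20.1 FPKM in flow-through replicates 1 to 4 and at 25.6, 11.2, 19.9 and 14.1 FPKM in the enriched libraries (log2 fold change -0.76, limma adjusted p = 0.24; 0.0116 with the mouse as a block). In both fractions *Lmna* and *Crip2* were highest in mouse 1, then in mice 3, 4 and 2. The summed level of 7 erythroid marker genes had the same order in each fraction, with 1209, 252.9, 639.5 and 300.1 FPKM in flow-through libraries and 842.3, 117.8, 345.9 and 132.0 FPKM in the enriched libraries. Of these markers 1 was lower in the enriched fraction (*Epor*) and 5 were lower with the mouse as a block, which called 2763 of the 12166 genes tested lower. In the flow-through *Lgals9* followed the same order of mice, whereas *Lgals1*, *Lgals3*, *Vim*, *Crip1* and *Tagln2* followed the reverse order. In the enriched fraction the reverse order did not hold, since *Lgals1*, *Vim* and *Crip1* were highest in mouse 1, which also had the highest erythroid sum. Whether erythroid cells contributed to the values of *Lmna*, *Crip2* or *Lgals9* was not tested.

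**Figure D3:**
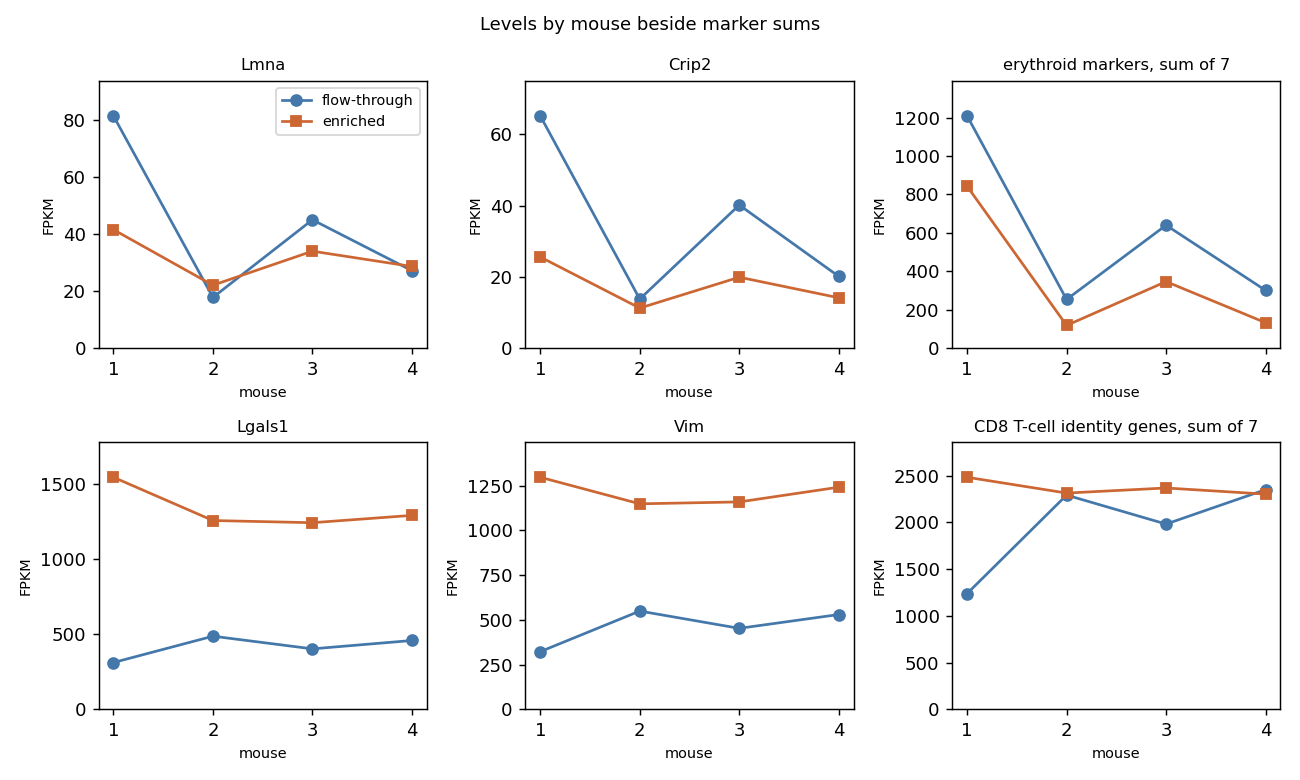
Levels in FPKM (vertical axes, from 0) by mouse in flow-through (blue circles) and enriched (orange squares) libraries for *Lmna*, *Crip2*, *Lgals1* and *Vim* beside the summed level of 7 erythroid markers and of 7 CD8 T-cell identity genes. *Lmna*, *Crip2* and the erythroid sum are highest in mouse 1 and lowest in mouse 2, and the CD8 identity sum is lowest in the flow-through library of mouse 1.

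The flow-through library of mouse 1 stood apart, being the lowest of the 4 flow-through libraries for all 7 genes that rose and for *Lgals8*. Its 7 CD8 T-cell identity genes (*Cd3d*, *Cd3e*, *Cd3g*, *Cd247*, *Cd8a*, *Cd8b1* and *Lck*) deviated by -0.77 from the mean of the 8 libraries on the log2 scale, and the other libraries by between -0.10 and 0.21. Without this library the 7 genes were still called higher, with log2 fold changes of 1.56 for *Lgals1*, 1.71 for *Lgals3*, 1.25 for *Vim*, 1.68 for *Ahnak*, 1.16 for *Crip1*, 0.72 for *Emp3* and 0.37 for *Tagln2*, and *Lgals9* was called lower (-0.56). T-cell scaling called 4.54% of all genes higher and 6.39% lower and moved the all-gene median of the log2 fold change from -0.02 to -0.29. Under it *Lgals1* (1.39), *Lgals3* (1.59), *Ahnak* (1.56), *Vim* (1.11) and *Crip1* (0.95) were called higher, and *Emp3* (0.50, adjusted p = 0.076), *Tagln2* (0.15, adjusted p = 0.49) and *Lgals9* (-0.93, adjusted p = 0.0508) were not called. With the mouse added as a block to this scaling *Lgals9* was called lower (limma adjusted p = 0.0036).

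**Figure D4:**
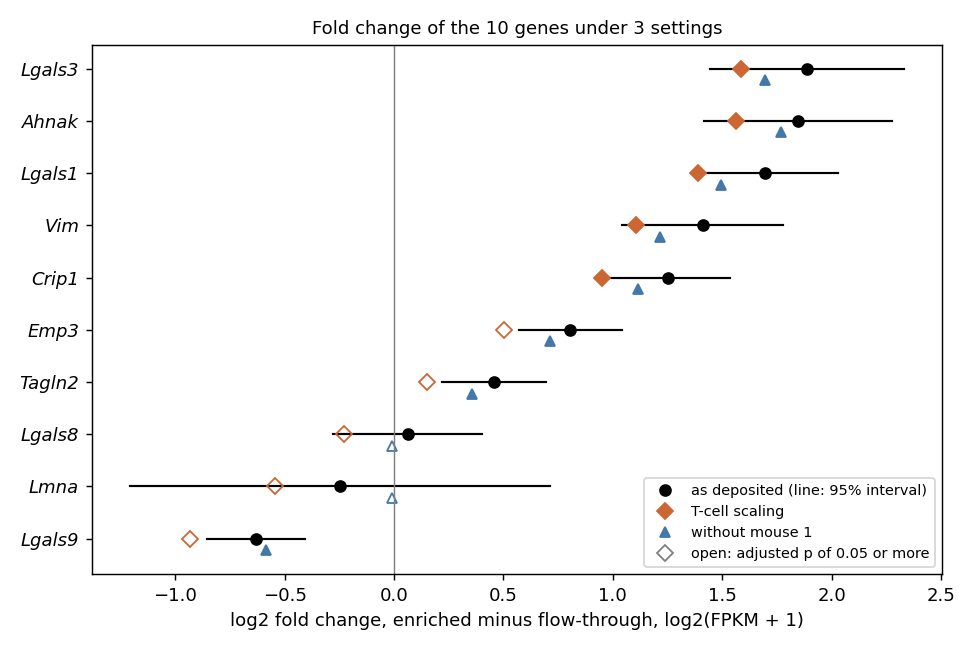
Log2 fold change, enriched minus flow-through, of the 10 genes (horizontal axis, log2(FPKM + 1) scale) with the deposited scaling and its 95% interval in black, under T-cell scaling in orange and without the libraries of mouse 1 in blue, where open symbols have an adjusted p of 0.05 or more. *Lgals1*, *Lgals3*, *Vim*, *Crip1* and *Ahnak* are above 0 and filled in all 3 settings, *Lgals9* is below 0 in all 3, and *Lgals8* changes sign under T-cell scaling and without mouse 1.

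Many of these genes are also expressed by cells other than CD8 T cells, so marker genes were read from the same libraries. In bulk RNA a smaller share of cells and less RNA per cell cannot be told apart. Of the 7 CD8 identity genes limma called 0 (1 at an unadjusted p under 0.05), and their summed level was 1239 to 2351 FPKM in flow-through libraries and 2303 to 2483 FPKM in the enriched fraction. Of 11 myeloid markers, 6 were higher, 10 were higher with the mouse as a block, and their sum was 135.1 to 474.1 FPKM in flow-through libraries and 435.7 to 1040.2 FPKM in the enriched fraction. In each fraction the myeloid sum was highest in mouse 2. Among flow-through libraries mouse 2 also had the highest *Lgals1*, *Lgals3*, *Vim*, *Crip1* and *Tagln2* and the lowest *Lgals9* and *Lmna*. Among enriched libraries it had the highest *Ahnak*, *Emp3* and *Tagln2* and the lowest *Vim* and *Lmna*, and *Lgals1*, *Lgals3* and *Crip1* were highest in mouse 1. Of 7 NK cell markers 5 were higher (summed 92.0 to 261.0 and 241.4 to 505.6 FPKM), of 6 dendritic cell markers 5 (12.9 to 21.0 and 29.5 to 61.2 FPKM), of 6 γδ T-cell markers 2, or 5 with the mouse as a block (65.9 to 94.2 and 84.5 to 182.3 FPKM), and of 2 CD4 T-cell markers 2 (1.43 to 5.68 and 7.66 to 26.9 FPKM). Of 5 plasma cell markers 1 was higher, or 5 with the mouse as a block (331.9 to 1325 and 603.9 to 1591 FPKM), and of 5 B-cell markers tested limma called 0 (0 at an unadjusted p under 0.05, 2 with the block, in opposite directions). No marker of these lists was at 0 FPKM in all libraries. The single endothelial and the 3 megakaryocyte and platelet markers that were tested were not called. The part of these cell types in the rise of the 7 genes was not tested. The 7 stromal markers, which include collagen genes, summed to 0.76 to 1.94 FPKM in every library. Of 5 melanoma markers 4 were at 0 FPKM, and the other was at 0.34 to 0.84 FPKM. The part of stromal or melanoma cells in the values of the 10 genes was not tested.

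Compared among themselves, the genes changed order between the fractions. In the flow-through the order of the mean levels, as FPKM, was *Crip1*, *Vim*, *Tagln2*, *Lgals1*, *Lgals9*, *Emp3*, *Lgals3*, *Lmna*, *Lgals8* and *Ahnak*, and the ranges of neighbours overlapped between *Crip1* and *Vim*, among *Vim*, *Tagln2* and *Lgals1*, and between *Lgals9* and *Emp3*, *Lgals3* and *Lmna*, and *Lmna* and *Lgals8*. In the enriched fraction it was *Crip1*, *Lgals1*, *Vim*, *Tagln2*, *Emp3*, *Lgals3*, *Lgals9*, *Ahnak*, *Lmna* and *Lgals8*. The ranges overlapped between *Crip1* and *Lgals1*, *Lgals1* and *Vim*, *Emp3* and *Lgals3*, *Ahnak* and *Lmna*, and *Lmna* and *Lgals8*. Of the 10 genes, 7 were among the 1000 genes with the highest mean level, the others being *Ahnak*, *Lmna* and *Lgals8*.

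**Figure D5:**
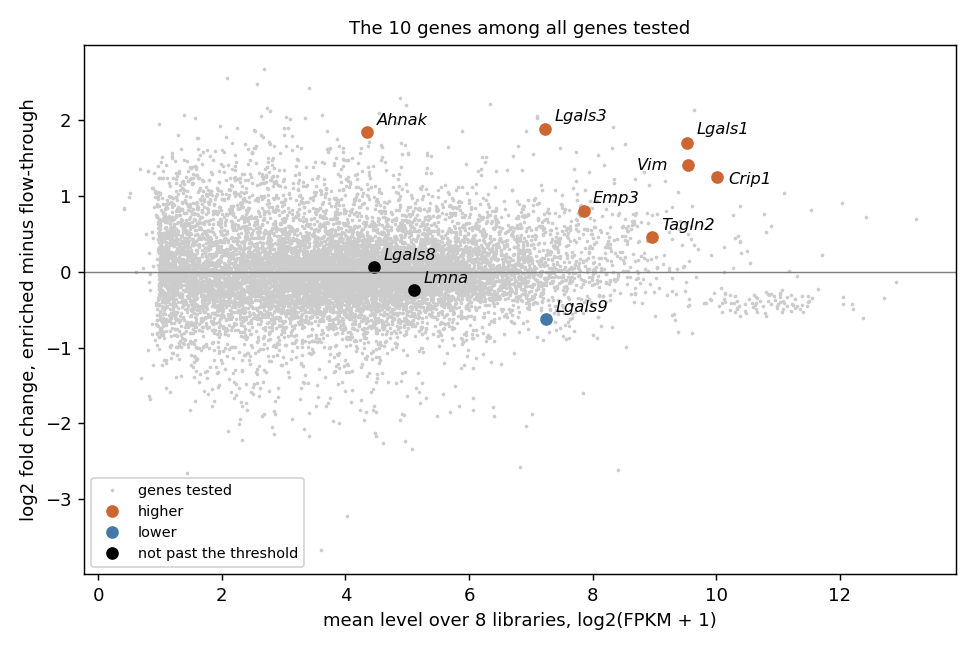
Mean level over the 8 libraries (horizontal axis, log2(FPKM + 1)) against the log2 fold change, enriched minus flow-through (vertical axis), of 12166 genes in grey, with the 10 genes in colour. The genes called higher run from *Tagln2* at 0.46 to *Lgals3* at 1.89, *Lgals9* is at -0.63, and *Lgals8* and *Lmna* lie near 0.

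The genes whose pattern over the 8 libraries was most like that of *Lgals1* and of *Vim* were listed by Pearson r of log2(FPKM + 1) among 9060 genes whose mean reached 5 FPKM. For *Lgals1* they were *Tbx21*, which encodes the transcription factor T-bet (r = 0.998), *S100a4* (0.998), *S100a6* (0.997), *Cdc25b* (0.997) and *Arntl* (0.997). For *Vim* they were *Emp1* (0.999), *Cd48* (0.998), *Tbx21* (0.997), *Myl12a* (0.997) and *Cldnd1* (0.997). The libraries fall into the 2 fractions, which share their mice, so these values describe the separation. Over the 9060 genes, with members and the gene itself counted, r was above 0.9 for 813 genes with *Lgals1* and for 937 with *Vim*. After the mean of each fraction was removed, r was between 0.94 and 0.98 for the 5 genes of *Lgals1* and between 0.97 and 0.99 for those of *Vim*. These genes were picked by r over the same libraries, which favours high values here too, and no such value over all genes was computed. The genes differed in the size of their change, from a log2 fold change of 0.45 for *Arntl*, at 5.88 ± 0.43 and 8.38 ± 0.33 FPKM, to 2.14 for *S100a4*, at 386.2 ± 89.0 and 1673 ± 151 FPKM. *Tbx21* rose from 16.0 ± 3.74 to 53.2 ± 5.46 FPKM, a log2 fold change of 1.70 like that of *Lgals1*.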

How the data were processed

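RNA sequencing of 4 flow-through and 4 IL-18Rα-hi-enriched libraries was used, grouped as labelled and paired by replicate number, which was taken as the mouse. The authors deposited FPKM values. They dropped low-quality reads, aligned the remaining reads to mm10 (TopHat) and obtained gene abundances from Cufflinks 2.1.1, with corrections for multi-mapping reads and fragment bias and other options at default. Coordinates are those of GENCODE M21 (same build, 98.9% of identifiers found), promoters those of RefSeq, and 27 names turned into dates were restored. FPKM carries no exact depth, and low values of long single-transcript genes placed it at about 15922000 to 18793000 fragments per library, and counts were not modelled.

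Fractions were compared with limma 3.58.1 (R 4.3.3) on log2(FPKM + 1) with a variance trend and no block, over the genes whose mean reached 1 FPKM, with Benjamini-Hochberg adjustment over all of them and a threshold of 0.05. Fold changes on this scale understate those of low genes. The procedure was tested on simulated data. Member ratios were compared by exact two-sided permutation of 4 against 4 libraries (70 arrangements, smallest p 0.0286). Alternatives were a pseudocount of 0.1, 2 other level filters, T-cell scaling, quantile normalization, a replicate block for the mouse and each library left out, and, added after the data were seen, mouse 1 left out and T-cell scaling with the block. The labels give replicate numbers, and fractions with the same number were taken as coming from the same mouse. Their deviations from the group means correlated at 0.31 to 0.66 across genes, so the fractions are not independent replicates.

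The members and gene lists were chosen with earlier results of these data known. Genes named beside the 10 members and *Il18r1* were, in each list, up to 4 past the threshold with the largest change, all tested genes where these were 5 or fewer, and the 5 genes most correlated with *Lgals1* and with *Vim*. *Crip2*, *Actn1*, *Tpm1*, *Epor*, *Lgals4*, *Lgals7*, *Lgals2*, the *Lgals1* pseudogenes, *Ahnak2* and *Heatr1* were named after their values were seen. Protein sequences were not used here, and some genes are counted in the lists but not reported here by name.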

Additional observations from a re-analysis of the deposited data

Results flagged for a closer look

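Within a group of 4 libraries, a value whose gap to its nearest neighbour exceeds Dixon's 95% critical share of the whole range stands far from the others. Of the 20 groups examined (10 genes in each fraction) 3 did so, where chance gives about 1. *Lgals1* was at 1543 FPKM in enriched replicate 1, above the other enriched libraries (gap 0.839 of the range). Without that library its log2 fold change was 1.62, against 1.70 with all libraries. *Lgals3* was at 271.3 FPKM (0.917) and *Emp3* at 279.7 FPKM (0.836) in enriched replicate 3, below the others in both cases. Enriched replicate 3 was the lowest enriched library for 5 of the 10 genes.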

How the results depend on the processing

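The calls of *Lgals1*, *Lgals3*, *Vim*, *Crip1* and *Ahnak* held under all 16 alternatives, with log2 fold changes from 1.39 to 1.78, 1.59 to 2.04, 1.11 to 1.5, 0.95 to 1.32 and 1.56 to 1.99. The exceptions were *Lgals9*, *Emp3* and *Tagln2* under T-cell scaling (-0.93, 0.50 and 0.15), *Tagln2* under quantile normalization (0.24, limma adjusted p = 0.057), and *Emp3* and *Tagln2* under T-cell scaling with the replicate block (adjusted p = 0.0985 and 0.60), and the number of members called lower was then 0 under T-cell scaling. *Lgals8* changed sign under T-cell scaling with and without the block (-0.23) and, close to 0, with both libraries of mouse 1 left out (-0.011), and ran from -0.068 to 0.13 with single libraries left out. *Lmna* ran from -0.58 to 0.13 with single libraries left out. Over all genes, 1720 were higher and 1664 lower, 552 and 778 under T-cell scaling, 2705 and 2763 with the replicate block, and 675 and 1995 (25.3% of calls higher) with both. With single libraries left out they ran from 1107 to 1813 and from 939 to 1780. The lowest counts came without enriched replicate 4 (1107 higher) and without flow-through replicate 3 (939 lower), and enriched replicate 2 also lowered them (1115 and 958). The cause of these shifts was not tested. The replicate block changed no call of the 10 genes and its paired form of the ratio tests, with 4 mice, is too small to pass the threshold, as are the ratio tests with 1 library left out (smallest exact permutation p = 0.0571). Depth was not known exactly.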
